A study of Caenorhabditis elegans with 2 samples.

Results

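The genes described here are the small nuclear RNA (snRNA) genes of C. elegans other than the spliced leader genes: 99 of the 129 nuclear genes with the Ensembl biotype snRNA, the other 30 being genes whose symbol starts with sls-. The rule names them by annotation alone, among 46890 nuclear genes, and uses no ChIP value, but the group was picked for description with earlier results of these data known. The data are ChIP-seq peak lists from whole L3 larvae, a mid-larval stage, with the nuclear hormone receptor NHR-77 as target. The series has 1 group of 2 biological replicates. Per the labels, both came from strain OP353, which carries the allele unc-119(tm4063) on chromosome III and the transgene array wgIs353 with eGFP-tagged nhr-77, in mixed-sex animals of unstated age. The antibody label says nhr-77 alone, so the part of the fusion that the antibody met is not given. No strain without the transgene is among the samples, and a control named in the labels entered only through the authors' peak calling. With 1 group there is no contrast between conditions, and every comparison below sets these genes beside other genes in the same 2 libraries.

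snRNAs are short nuclear RNAs that, packed with proteins, form the spliceosome, the machine that removes introns from pre-mRNA. U1 pairs with the 5′ splice site, U2 with the branch point, U6 takes over the 5′ splice site, and U5 holds the exons together. Their genes are transcribed by RNA polymerase II or, for U6, by RNA polymerase III, and in both cases a proximal sequence element (PSE) a short way upstream is bound by the snRNA activating protein complex; a TATA box beside it is a mark of the polymerase III type in vertebrates. Nematodes also have SmY RNAs, encoded by the smy genes, which are bound by Sm proteins and linked to trans-splicing. Every ranking below is of a summit, the position of highest signal inside a peak, and each gene was searched from 1000 bp upstream to 500 bp downstream of its 5′ end.

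The 80 bases before the 5′ end of 10 of the 12 genes with a summit in the authors' strictest list show what they share in front of the gene. Each is written 5′ to 3′ on the gene's strand from the RefSeq genome WBcel235, the same assembly as ce11, and ends at the base before the 5′ end. Capitals mark the 8-base word CGGAACCC, exact or with 1 mismatch, and the word TATAA. The genes fall into sequence families, called here by their commonest length. W05B2.8 and F54D8.7 belong to the 102 nt family, sup-6, sup-39, T08G5.11 and F08H9.11 to the 165 nt family, F38E11.10 to the 122 nt family, C52E4.8 to the 144 nt family, and F08G2.10 and F08G2.11 to the 187 nt family.
W05B2.8 (chrIII:10989599-10989678, plus strand): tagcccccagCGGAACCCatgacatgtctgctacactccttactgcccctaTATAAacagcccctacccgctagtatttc
F54D8.7 (chrIII:5080899-5080978, minus strand): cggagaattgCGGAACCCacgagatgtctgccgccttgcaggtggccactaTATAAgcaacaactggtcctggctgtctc
sup-6 (chrII:12944968-12945047, minus strand): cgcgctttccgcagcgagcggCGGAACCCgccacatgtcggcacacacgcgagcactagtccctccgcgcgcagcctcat
sup-39 (chrII:6968559-6968638, minus strand): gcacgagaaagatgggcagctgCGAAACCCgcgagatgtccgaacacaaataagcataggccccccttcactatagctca
T08G5.11 (chrV:14028636-14028715, minus strand): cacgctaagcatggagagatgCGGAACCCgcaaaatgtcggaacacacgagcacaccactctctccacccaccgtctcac
F08H9.11 (chrV:14468734-14468813, minus strand): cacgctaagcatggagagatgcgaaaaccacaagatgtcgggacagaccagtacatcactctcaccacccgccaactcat
F38E11.10 (chrIV:9444562-9444641, plus strand): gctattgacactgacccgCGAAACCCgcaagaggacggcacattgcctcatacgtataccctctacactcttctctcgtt
C52E4.8 (chrV:11980038-11980117, plus strand): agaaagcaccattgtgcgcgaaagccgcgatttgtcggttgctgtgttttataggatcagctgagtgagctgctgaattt
F08G2.10 (chrII:13829492-13829571, minus strand): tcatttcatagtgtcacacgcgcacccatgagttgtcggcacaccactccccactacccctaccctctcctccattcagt
F08G2.11 (chrII:13852707-13852786, plus strand): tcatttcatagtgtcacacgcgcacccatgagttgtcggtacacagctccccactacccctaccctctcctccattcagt

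The word CGGAACCC was the 8-base word found upstream of the most members, tied with GCGGAACC, which overlaps it. On the gene strand within 100 bp upstream it stood before 26 of the 99 snRNA genes (26.3%), against 67 of all 46890 nuclear genes (0.143%) and 5 of the 30 spliced leader genes. In all 26 it began between 74 and 56 bp before the 5′ end, at a median of 61 bp. With 1 mismatch allowed, 42 snRNA genes held it (42.4%), against 1.08% of all genes. A match of letters is a description and not a bound site. The word was picked as the commonest before these genes, so its excess over all genes is no test of it. Some members share much of their upstream sequence, as F08G2.10 and F08G2.11 do above, so the counted genes are not independent.

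The families differed in these letters. The exact word stood before 8 of the 14 genes of the 165 nt family, 6 of 12 of the 122 nt family, 5 of 10 smy genes, 5 of 24 of the 102 nt family and 2 of 5 of the 144 nt family. It stood before none of the 20 genes of the 187 nt family, 14 of which had TGTCGGTA beginning 47 bp upstream. That second word was found before 18 snRNA genes (18.2%) and 0.1045% of all genes. The 18 include 3 genes of the 122 nt family and 1 of the 144 nt family. Its first letters, TGTCGG, are more widely shared: in the sequences above they also stand before sup-6 and T08G5.11, after CGGAACCC. They stand as well before F08H9.11, C52E4.8 and F08G2.10, which lack CGGAACCC even with 1 mismatch. At least 1 of the pair, with 1 mismatch allowed in the first, stood before 56 snRNA genes (56.6%), against 1.18% of all genes. TATAA on the gene strand was present before 17 of 24 genes of the 102 nt family, in 15 of them between 35 and 25 bp upstream. It was absent from the 100 bp before every gene of the 165, 122 and 144 nt families and every smy gene. Over all 99 members its share was 22.2%, close to the 20.3% of all nuclear genes.

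**Figure D1:**
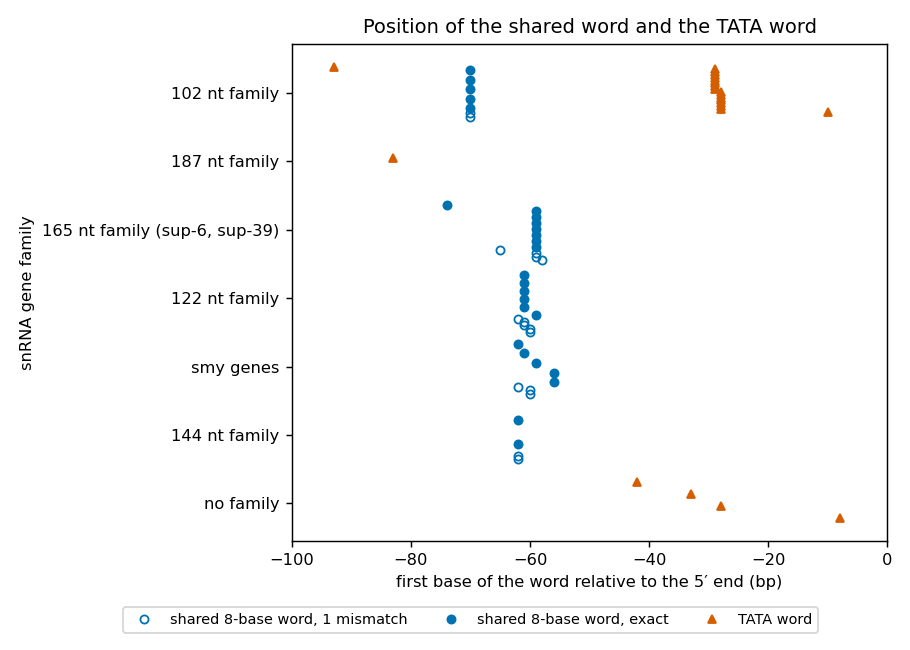
Position of the first base of CGGAACCC (blue circles, filled for an exact match, open for 1 mismatch) and of TATAA (orange triangles) in the 100 bp before the 5′ end, by family; each mark is 1 gene. The exact word sits between 74 and 56 bp upstream in all 26 genes that hold it, and TATAA clusters near 29 bp upstream in the 102 nt family.

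The families were built from shared 8-base words inside the genes, except the smy genes, which were grouped by name. Letters known from the RNAs fell along the same lines. ACAGAGA, the stretch with which U6 meets the 5′ splice site, was in 22 of 24 genes of the 102 nt family and in no other. GTAGTATC, from the stretch with which U2 pairs with the branch point, was in 19 of 20 genes of the 187 nt family. CTTACCTG, the stretch of U1 that pairs with the 5′ splice site, was in 12 of 14 genes of the 165 nt family, which holds sup-6 and sup-39, both known U1 genes. GCCTTTTAC, the U5 loop, was in 11 of 12 genes of the 122 nt family. Each word was absent from the genes of every other family. A further 14 genes joined no family of at least 3.

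The snRNA genes stood above the genome in how often a strong summit lay near them. The authors' IDR list, a set of 590 peaks thresholded on the irreproducible discovery rate of the replicates, had a summit in the window of 12 of the 99 snRNA genes (12.1%, exact Clopper-Pearson 95% interval 6.42 to 20.2%), against 1.84% of all nuclear genes. In the relaxed pooled list of 30000 entries, 53 snRNA genes had a summit (53.5%, 43.2 to 63.6%), against 39.7% of all genes. The excess in the relaxed list was thus smaller than that in the IDR list: of the genes with any pooled summit, 22.6% of the snRNA genes and 4.63% of all genes had one in the IDR list. The median rank of the strongest pooled summit by the authors' signal value, with rank 1 the strongest, was 5614 over the 53 snRNA genes, against 12044 over 18626 genes. These intervals cover counting error only, near-identical genes and shared peaks are not independent, and no test was made.

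Each replicate on its own gave a like picture. Among the 590 strongest entries of replicate 1, 10 snRNA genes had a summit (10.1%), against 1.78% of all genes. Among those of replicate 2 it was 8 snRNA genes (8.08%), against 1.66%. In both replicates it was 7 snRNA genes (7.07%), against 0.932%, and all 7 were also in the IDR list.

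Other small RNA genes shared the high shares. An IDR summit lay in the window of 12.1% of the snRNA genes, 30% of the 30 spliced leader genes (14.7 to 49.4%), 17.6% of 346 snoRNA genes, 9.48% of 612 tRNA genes and 2.50% of 19973 protein coding genes. The snRNA genes were thus between the tRNA and snoRNA genes, with an interval that holds both values, and nothing in these shares is particular to them among small RNA genes.

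The 12 genes with an IDR summit ranked between 60 and 454 in the pooled list. F08G2.10, a 187 nt gene at chrII:13829305-13829491 on the minus strand, was first. Its summit had rank 60 and a signal of 71.6 in the pool, rank 161 and 26.2 in replicate 1, and rank 81 and 36.8 in replicate 2; signal scales differ between lists, so only ranks are compared across them. It lay 230 bp downstream of the 5′ end, 44 bp past the 3′ end. The same summit was 564 bp upstream of the 5′ end of his-42, a histone H3 gene. The Ensembl symbol of F08G2.10 is C47F8.9, which 7 members carry, so RefSeq names are used throughout.

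C52E4.8, 144 nt at chrV:11980118-11980261 on the plus strand, had rank 76 with a signal of 66.4 in the pool, rank 79 in replicate 1 and rank 137 in replicate 2. Its pooled summit lay 176 bp downstream of the 5′ end and 571 bp upstream of snr-4, which encodes an Sm protein of the kind that packs snRNAs. The replicates placed the strongest summit differently, at 124 bp downstream in replicate 1 and 19 bp upstream in replicate 2.

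W05B2.8, 102 nt at chrIII:10989679-10989780 on the plus strand, had rank 79 with a signal of 65.0 in the pool, rank 208 in replicate 1 and rank 107 in replicate 2. It was the only one of the 12 with its strongest summit upstream of the 5′ end, 18 bp before it in the pool and 23 bp in both replicates. Measured on the sequence shown above, that position falls between TATAA, which begins 29 bp upstream, and the 5′ end. No coding promoter and no other gene window held the summit, though the gene sits in an intron of dhc-4, a dynein heavy chain gene, on the same strand. Its sequence is identical to that of 13 other snRNA genes, 14 genes that share the Ensembl symbol R07E5.16.

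The known U1 genes sup-6 and sup-39 are given together here, though F38E11.10 ranked between them. sup-6, 165 nt at chrII:12944803-12944967 on the minus strand, had rank 83 with a signal of 64.15 in the pool, rank 105 in replicate 1 and rank 58 in replicate 2. Its strongest summit was past the 3′ end in every list, at 224 bp from the 5′ end in the pool, 201 bp in replicate 1 and 339 bp in replicate 2. sup-39, 165 nt at chrII:6968394-6968558 on the minus strand, had rank 166 with a signal of 48.6 in the pool, rank 71 in replicate 1 and rank 3002 in replicate 2. The libraries thus differed widely at sup-39, and the pooled summit at 229 bp was near that of replicate 1 at 189 bp, while replicate 2 had its strongest at 19 bp. Both sup-6 and sup-39 lie in an intron of a coding gene on the same strand, sup-6 of F58G1.7 and sup-39 of C15F1.5. Both summits fall in an exon of that gene. F08H9.11 and T08G5.11, of the same family and also with an IDR summit, lie outside coding genes. The 22 nt entry mir-1831, a microRNA name that carries the biotype snRNA, lies inside sup-39 and took the same peak, so the 12 genes had 11 peaks.

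The bases around the strongest pooled summit are shown for 4 genes in which it lies past the 3′ end, since these are the places the ranks describe. Each line holds 60 bases on either side of the summit on the gene's strand, from the same genome, and capitals mark the summit base with 5 bases on either side.
C52E4.8 (chrV:11980234-11980354, plus strand): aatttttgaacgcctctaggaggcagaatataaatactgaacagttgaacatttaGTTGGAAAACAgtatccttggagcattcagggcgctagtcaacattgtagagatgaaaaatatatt
sup-6 (chrII:12944683-12944803, minus strand): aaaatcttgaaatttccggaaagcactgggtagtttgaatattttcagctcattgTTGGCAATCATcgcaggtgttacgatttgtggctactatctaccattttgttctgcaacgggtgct
sup-39 (chrII:6968269-6968389, minus strand): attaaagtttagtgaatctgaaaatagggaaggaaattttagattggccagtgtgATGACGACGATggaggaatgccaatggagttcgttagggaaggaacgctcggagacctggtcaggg
F08G2.11 (chrII:13853005-13853125, plus strand): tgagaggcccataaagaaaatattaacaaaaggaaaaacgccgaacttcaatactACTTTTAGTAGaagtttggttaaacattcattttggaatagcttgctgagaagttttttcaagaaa

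F38E11.10, 122 nt at chrIV:9444642-9444763 on the plus strand, had rank 96 with a signal of 60.6 in the pool, rank 196 in replicate 1 and rank 117 in replicate 2. The pooled summit was 126 bp downstream of the 5′ end, with replicate 1 at 17 bp upstream and replicate 2 at 211 bp downstream. F08G2.11, 186 nt at chrII:13852787-13852972 on the plus strand, had rank 170 with a signal of 48.4 in the pool, rank 262 in replicate 1 and rank 123 in replicate 2. All 3 lists placed its summit past the 3′ end, at 278 bp in the pool, 292 bp in replicate 1 and 248 bp in replicate 2. It is the second gene whose summit lay in no other gene's window, and the third outside coding promoters beside W05B2.8 and sup-6.

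F08H9.11, 165 nt at chrV:14468569-14468733 on the minus strand, had rank 345 with a signal of 36.4 in the pool, rank 946 in replicate 1 and rank 348 in replicate 2. Its pooled summit was 4 bp inside the gene and 483 bp upstream of srz-97, a chemoreceptor gene. The strongest summit was 15 bp upstream in replicate 1 and 217 bp downstream, past the 3′ end, in replicate 2. Within 100 bp of the pooled summit replicate 2 had only rank 2189. F54D8.7, 101 nt at chrIII:5080798-5080898 on the minus strand, had rank 393 with a signal of 34.2 in the pool, rank 125 in replicate 1 and rank 1018 in replicate 2. Its pooled summit at 99 bp was 1 bp before the 3′ end and 925 bp upstream of cox-6A, a cytochrome c oxidase subunit gene. The strongest summit was at 66 bp in replicate 1 and 248 bp in replicate 2. T08G5.11, 165 nt at chrV:14028471-14028635 on the minus strand, ranked last of the 12, at 454 with a signal of 32.3 in the pool, with rank 625 in replicate 1 and rank 4213 in replicate 2. Each list placed its summit past the 3′ end, at 269 bp in the pool, 235 bp in replicate 1 and 239 bp in replicate 2.

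F32B5.9, 123 nt, was the only gene of the 12 on chromosome I, at chrI:2688947-2689069 on the plus strand. It had rank 247 with a signal of 41.7 in the pool, rank 268 in replicate 1 and rank 367 in replicate 2, and summits at 161, 118 and 159 bp downstream of the 5′ end in these lists. The gene lies in an intron of cpz-1, a cathepsin Z-like protease gene on the opposite strand, and the summit in an exon of it.

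T08G5.11 at rank 454 was the last snRNA gene inside the IDR list, whose lowest peak has rank 590 and a signal of 28.9. H27M09.6, also of the 165 nt family and on chromosome I, was the first outside, at rank 599 with a signal of 28.7, rank 845 in replicate 1 and rank 1103 in replicate 2. It was followed by a 102 nt gene of chromosome IV (chrIV:4930954-4931055, plus strand) at rank 694, M163.13 at 856, F10D2.13 at 876, F08H9.10 at 931, smy-1 at 1480, R07E5.16 at 1527, F42C5.12 at 1620, C53D6.16 at 1971 and B0213.24 at 1980. M163.13, on chromosome X, had its summit at almost the same base in all lists, 47 bp upstream in the pool and in replicate 1 and 48 bp in replicate 2. B0213.24, whose pooled summit lay 455 bp downstream, had no replicate summit inside the window, but within 100 bp of the pooled one replicate 1 had rank 1153 and replicate 2 rank 9257. F42C5.12 had rank 17667 in replicate 1 and rank 1253 in replicate 2. At H27M09.6, F08H9.10, smy-1 and R07E5.16 the pooled summit was nearer to a coding 5′ end than to that of the snRNA gene. These coding ends were, in the same order, H27M09.5 at 117 bp, hsp-16.20 at 196 bp, C33A12.3 at 141 bp and mpc-1 at 209 bp. The summits of F10D2.13 and F42C5.12 also lay in a coding gene's window, but there the snRNA 5′ end was nearer. In all, 17 of the 53 genes with a pooled summit ranked within the first 1000 and 21 ranked past 10000.

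**Figure D2:**
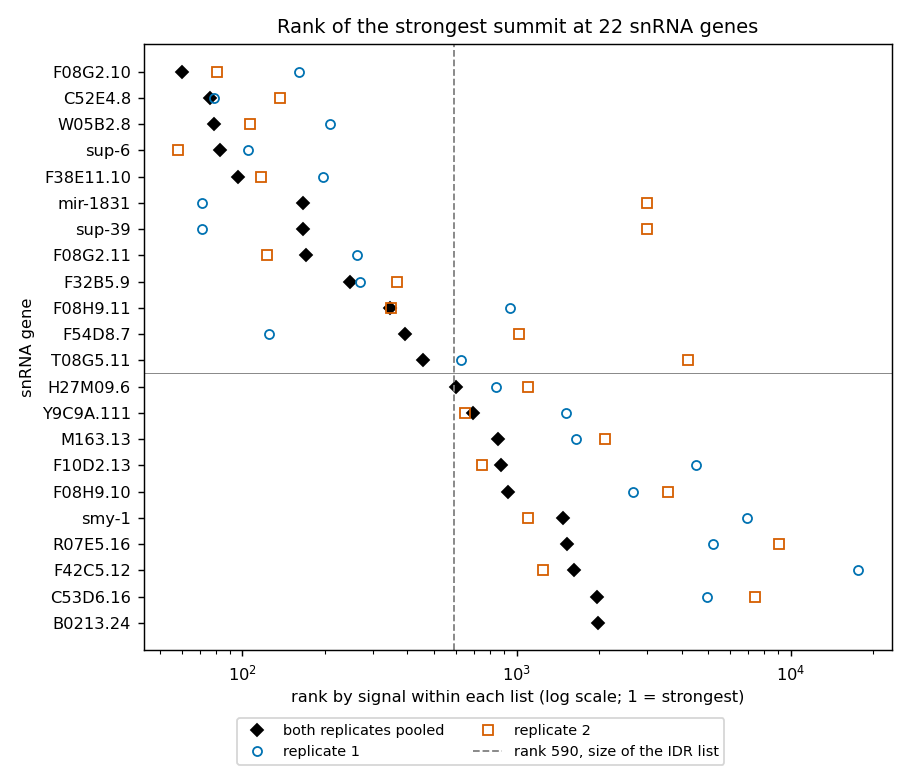
Rank of the strongest summit by signal (log axis, 1 the strongest) at the 22 snRNA genes with the best pooled rank, in the pooled list (black diamonds), replicate 1 (blue circles) and replicate 2 (orange squares). The dashed line is rank 590, the size of the IDR list; the horizontal line divides the 12 genes inside it, where sup-39 and mir-1831 have rank 3002 and T08G5.11 has rank 4213 in replicate 2, from the next 10.

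Among the 12 genes the median rank was 166 in the pool, 178.5 in replicate 1 and 242.5 in replicate 2. The first 590 entries held 10 of them in replicate 1, 8 in replicate 2 and 7 in both. The 7 were F08G2.10, C52E4.8, W05B2.8, sup-6, F38E11.10, F08G2.11 and F32B5.9. F08H9.11 was missed only in replicate 1, sup-39, mir-1831 and F54D8.7 only in replicate 2, and T08G5.11 in both.

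The summits of the snRNA genes lay further downstream than those of most genes in these lists. The strongest IDR summit lay downstream of the 5′ end in 11 of the 12 snRNA genes (91.7%), against 25.7% of the 863 genes with an IDR summit and 8.4% of the 500 protein coding ones. The median position was 199 bp downstream over the 12 snRNA genes, with quartiles of 119.25 and 229.25 bp, against -145 bp, upstream of the 5′ end, over all 863 genes and -236 bp over the protein coding genes. It was 53 bp downstream over 9 spliced leader genes, -27 bp over 61 snoRNA genes and -25.5 bp over 58 tRNA genes. Since snRNA genes are short, 9 of the 12 summits were past the 3′ end, 2 inside the gene and 1 upstream. All 11 peaks overlapped an snRNA gene, the one at mir-1831 through sup-39 and not through mir-1831 itself, and the median peak width of the list was 344 bp.

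The wider set of 53 genes had the same lean with more scatter. Their strongest pooled summit was at a median of 154 bp downstream, with quartiles of -76 and 230 bp, against -191 bp over 18626 genes. It was upstream in 21, inside in 5 and past the 3′ end in 27, so that 60.4% lay downstream of the 5′ end, against 32.3% of all genes. The share was 58.8% over 17 spliced leader genes, 48.1% over 457 tRNA genes and 36.4% over 236 snoRNA genes, so a lean downstream is not particular to the snRNA genes. By bins of 100 bp, 14 of the 53 (26.4%) fell between 200 and 300 bp downstream, against 5.99% of all genes, and 9 (17.0%) in the 100 bp before the 5′ end, against 9.62%. Spliced leader genes had 11.8% and 17.6% in these bins, tRNA genes 3.72% and 26.0%. Only 3 (5.66%) fell in the first 100 bp downstream, which holds part or all of each gene, against 8.42% of all genes. The 53 genes had 50 distinct summits, and the bin from 200 to 300 bp counts the peak of sup-39 and mir-1831 for both. In the replicate lists alone the median was 46 bp downstream in replicate 1 and 83 bp in replicate 2. These medians are over the snRNA genes with a summit in that list, which are partly other genes than the 53. The larger pooled value is therefore not shown to be a shift at the same genes.

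**Figure D3:**
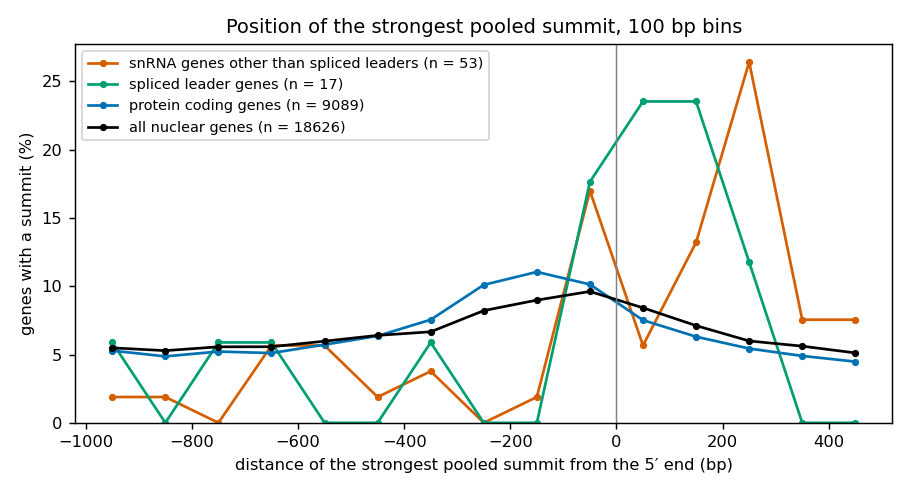
Share of genes whose strongest pooled summit falls in each 100 bp bin around the 5′ end, for 53 snRNA genes (orange), 17 spliced leader genes (green), 9089 protein coding genes (blue) and all 18626 genes with a pooled summit (black). The snRNA curve is high just before the 5′ end, at 17.0%, and between 200 and 300 bp, at 26.4%, with a dip to 5.66% between 0 and 100 bp.

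Some snRNA genes had a summit upstream or inside the gene and another past the 3′ end. Counting pooled summits up to rank 2000 at the genes with an IDR summit, and sup-39 without mir-1831, 5 genes had a pair, and in all 5 the first lay upstream or inside the gene and the second past the 3′ end. With mir-1831 this is 6 of the 12 genes (50%), against 90 of the 863 nuclear genes with an IDR summit (10.4%) that had 2 or more such summits and 21 (2.43%) that had them on both sides of the 3′ end. Of the 9 spliced leader genes 2 had 2 or more, as did 8 of the 58 tRNA genes and 4 of the 61 snoRNA genes. Summits on both sides of the 3′ end were found at 1 of these spliced leader genes, 3 tRNA genes and 2 snoRNA genes, and at 0 of 500 protein coding genes. The length of a gene limits whether its 3′ end lies in the window. The spacing ran from 199 to 217 bp. That is less than the median peak width of 344 bp, and the peaks of each pair overlap. F08G2.10 had rank 194 at 31 bp and rank 60 at 230 bp, W05B2.8 rank 79 at -18 bp and rank 264 at 188 bp, and sup-39 rank 323 at 12 bp and rank 166 at 229 bp, all 6 in the IDR list. sup-6 had rank 1158 at 9 bp and rank 83 at 224 bp, and T08G5.11 rank 1143 at 70 bp and rank 454 at 269 bp. The second was the stronger in 4 of the 5, the exception being W05B2.8.

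**Figure D4:**
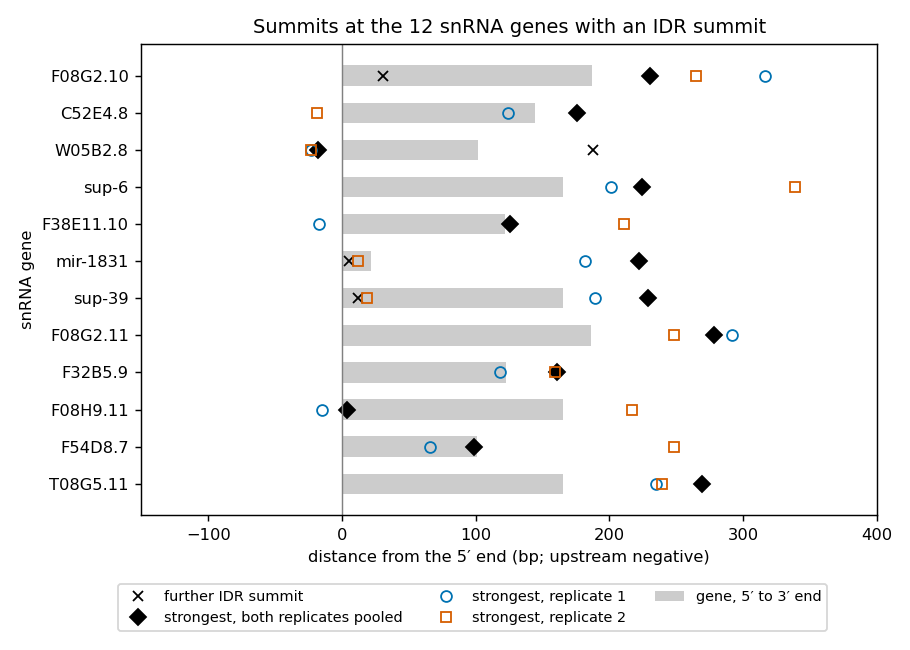
Strongest summit of the pooled list (black diamonds), replicate 1 (blue circles) and replicate 2 (orange squares) at the 12 snRNA genes with an IDR summit, in bp from the 5′ end, with the gene as a grey bar and any further IDR summit as a cross. In 9 of 12 genes the pooled summit lies to the right of the bar, and the replicates differ by up to 232 bp.

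The replicates did not fix the summit to a base. At the 12 genes their strongest summits differed by a median of 140.5 bp, between 0 bp at W05B2.8 and 232 bp at F08H9.11, and by over 100 bp in 7. They were downstream of the 5′ end in 9 genes in replicate 1, in 10 in replicate 2 and in 8 in both. At 10 of the 12, each replicate had some summit within 100 bp of the pooled one, at whatever rank. sup-6 and F54D8.7 had none there in replicate 2.

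Copies of snRNA genes are hard to tell apart by short reads. Of the 99 genes, 32 have an exact copy among the others, and the set holds 74 distinct sequences. As a measure of this, 36-base words were looked up in the whole nuclear genome on both strands. Words that begin in the first 50 bp of the 99 genes occur once in only 34.5% of cases, rising to 75.4% at 100 to 149 bp and 94.9% at 200 to 249 bp, while 75.9 to 91.1% occur once in the 50 bp bins upstream. Over all 99 genes the dip in unique words is deepest in the first 100 bp, where 3 of the 53 strongest pooled summits fell. From 200 to 300 bp, where 14 fell, 93.8 to 94.9% of words are unique. The dip reaches further in the longer genes, with 40.7% unique at 100 to 149 bp in the 165 nt family and 31.3% in the 187 nt family. These families hold 6 and 5 of the 14 summits, the peak shared by sup-39 and mir-1831 being counted for both in the 6. At 200 to 299 bp their words are 100% and 78.7 to 78.9% unique. Inside the gene the median share of unique words was 1.15% over the 12 genes with an IDR summit (0 without mir-1831), 23.7% over the 53 with a pooled summit and 29.5% over the 46 without. How reads with several matches were treated is not given in the sources used here, read length is unknown, and the part of this in the summit positions was not tested.

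**Figure D5:**
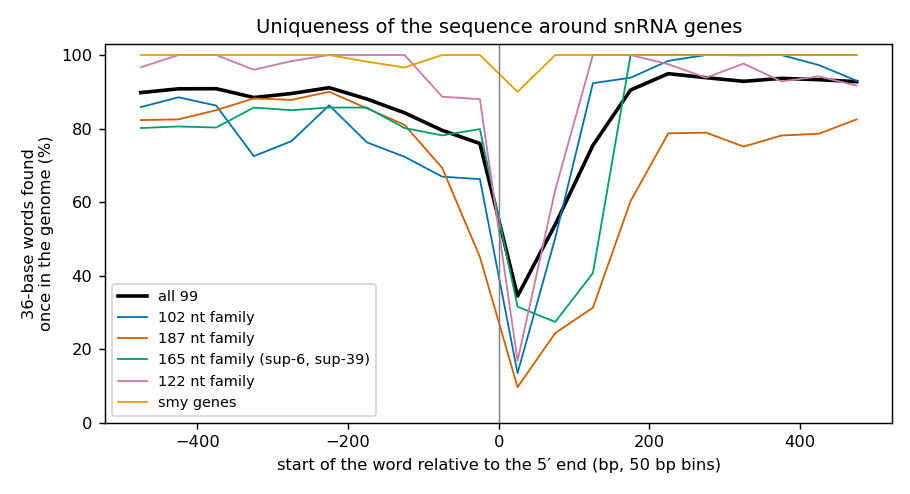
Share of 36-base words found once in the nuclear genome, by the start of the word in 50 bp bins from the 5′ end, over all 99 snRNA genes (black) and by family (colours). The share over all genes falls to 34.5% in the first 50 bp and is 94.9% at 200 to 249 bp, and the dip is shallowest in the smy genes among the families drawn.

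Of the 32 genes with an exact copy, 17 had a pooled summit and 5 an IDR summit, against 36 and 7 of the 67 genes without one. F08G2.10, C52E4.8, W05B2.8, F38E11.10 and F54D8.7 are the 5. Within a set of copies the ranks spread widely. Among the 7 genes identical to F08G2.10 at rank 60, the next, W07G1.8, had rank 3333, and among the 14 identical to W05B2.8 at rank 79, the copy at chrIV:4930954-4931055 had rank 694 and R07E5.16 rank 1527. The summit of R07E5.16 lay at -937 bp and nearer to the coding gene mpc-1, against -18 bp at W05B2.8. F38E11.10 at rank 96 has 1 exact copy, F38E11.11, which had rank 27374. Its summit lay at 337 bp, against 126 bp at F38E11.10. Further copies of F08G2.10 and W05B2.8, and the exact copy of C52E4.8, had no pooled summit. Genes with identical sequence thus differed widely in the rank of the strongest summit in their windows, which need not lie at the copy itself.

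By family, the 165 nt family with sup-6 and sup-39 had the most genes with an IDR summit, at 5 of 14, mir-1831 among them. These 5 came from 4 peaks. Of the 14 genes, 1, sup-6, had a summit in the top lists of both replicates. That count was 2 of 12 in the 122 nt family and 2 of 20 in the 187 nt family. It was 1 of 24 in the 102 nt family and 1 of 5 in the 144 nt family. In the 165 nt family, 10 genes had a pooled summit, at a median rank of 526.5 and a median position of 225.5 bp, 8 of them past the 3′ end. The 187 nt family had 12 pooled and 2 IDR summits among 20 genes, at a median of 217 bp. The 102 nt family, the one with ACAGAGA, had 11 and 2 among 24 genes, at a median of -22 bp, with 8 of the 11 upstream. The 122 nt family had 10 and 2 among 12 genes at a median of 29 bp. The 144 nt family had 2 and 1 among 5. The 10 smy genes had 4 pooled summits at a median rank of 21130.5 and no IDR summit, and 0 of 10 allows a share of up to 30.8% by the exact interval. The 14 genes of no family had 4 pooled summits and no IDR summit. Over all nuclear genes the shares were 39.7% with a pooled and 1.84% with an IDR summit. The pooled shares of the smy genes (40%) and the 102 nt family (45.8%) were near that of all genes. The counts per family are small, and differences between families were not tested.

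By chromosome, an IDR summit was found at 1 of 12 snRNA genes on I, where 3.19% of all nuclear genes had one, and at 5 of 13 on II, against 3.33%. The 5 on chromosome II include sup-39 and mir-1831 and come from 4 peaks. The count was 2 of 7 on III, against 3.91%, 1 of 36 on IV, against 0.629%, 3 of 28 on V, against 1.68%, and 0 of 3 on X, against 2.46%. These counts are small, and no test was made of them.

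Many summits could belong to a neighbour. The strongest IDR summit of 9 of the 12 snRNA genes also lay in the window of a protein coding gene (75%), against 53.1% over all genes with an IDR summit, where the gene's own window was not counted. This count rests on the width of the window: with 500 bp on either side of each 5′ end the 12 genes kept an IDR summit and 2 shared it with a coding promoter. In all 9 the snRNA 5′ end was nearer than the coding one, and in 8 the summit was upstream of the coding gene, the exception being cpz-1, whose 5′ end was 321 bp upstream of it. The coding 5′ ends were 321 to 925 bp away. The coding neighbours not yet named are F38E11.9, eif-2Bgamma, a translation initiation factor subunit gene 681 bp from the sup-39 summit, T08G5.3, and clec-57, a C-type lectin gene 502 bp from the summit of F08H9.11 and the second coding gene there. Noncoding genes came nearer still in 5 of the 12. The strongest summit was 25 bp from the 5′ end of the ncRNA gene F08G2.15 at F08G2.10, 2 bp from that of F38E11.24 at F38E11.10 and 95 bp from that of T08G5.18 at T08G5.11. At sup-39 and mir-1831 it was 9 bp from the 5′ end of a piRNA gene. Over the 53 genes with a pooled summit, 27 shared it with a coding promoter (50.9%), against 27.6% of all genes. Of the 99 snRNA genes, 48 lie in an intron of a coding gene, 12 overlap a coding exon and 39 lie outside coding genes, and the counts for the 12 with an IDR summit are 6, 0 and 6.

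The upstream words were present with and without summits. CGGAACCC stood before 5 of the 12 genes with an IDR summit (41.7%), 11 of the 41 with only a weaker pooled summit (26.8%) and 10 of the 46 with none (21.7%). With 1 mismatch the counts were 8 of 12, 19 of 41 and 15 of 46. TGTCGGTA stood before 1 of 12, 11 of 41 and 6 of 46. AGGTCA, a half-site that many nuclear receptors bind, was found on either strand in the same 100 bp of 4 of the 99 snRNA genes (4.04%), against 2.37% of all genes, and in none of the 12 with an IDR summit. That says only that these letters are not in this window, and most of these summits lie outside it.

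The remaining genes carried little signal in these lists. Of the 99 snRNA genes, 46 had no pooled summit in the window. Of these, 20 had a summit in a replicate list alone and 26 had none in any of the 4 lists. The read depth behind the lists is unknown, so a gene without an entry is below what the authors' calling returned here and is not shown to be unbound.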

How the data were processed

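ChIP-seq of 2 biological replicates was used as deposited peak lists. Per the labels, the authors called relaxed lists of peaks and background for each replicate and for the pool, and from these a stricter list by the irreproducible discovery rate (IDR). Aligner, caller and read depth were not given in the sources used here. Deposited signal values are the authors' enrichment over control and were used only to rank entries within a list. The authors' second deposited score, the −log10 of the q-value, was not used for ranking. The 590 IDR peaks on ce11 were checked to be the 590 strongest pooled entries. Lists on ce10 were not used here. Genes came from Ensembl release 115 (WBcel235), and all 99 members were matched by WormBase identifier to a RefSeq name, which differs from the Ensembl symbol in 25; 32 share an Ensembl symbol with another member. The strongest summit within 1000 bp upstream to 500 bp downstream of a 5′ end was taken per gene, and a summit could serve several genes. A replicate's top list was its first 590 entries. Families joined genes that share at least 30% of their 8-base words. Motifs were searched in 100 bp upstream of the gene's 5′ end, on the gene strand except AGGTCA (both strands). No test was made: shares have exact Clopper-Pearson 95% intervals for counting error and stand beside all nuclear genes. Scripts were tested on simulated summits at known distances. The rule for named genes took every member with an IDR summit, the next 10 by pooled rank, the genes on either side of the threshold, and coding neighbours of their summits; copies of F08G2.10, W05B2.8 and F38E11.10 (W07G1.8, F38E11.11), host genes and noncoding neighbours were named after their values were seen. The members, lists and words were chosen with earlier results of these data known. Python 3.11.15, numpy 2.4.6, scipy 1.17.1 and matplotlib 3.10.9 were used.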

Additional observations from a re-analysis of the deposited data

How the results depend on the processing

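With a window of 500 bp on either side, the IDR count stayed at 12 and the same 12 genes, the pooled count was 47 in place of 53, the median pooled position moved to 187 bp and the summits shared with a coding promoter fell to 2 in place of 9, the window of the coding genes being cut as well. With 300 bp upstream to 100 bp downstream, which leaves out the places past the 3′ end, these values were 6, 23, -18 bp and 0. The median position was 199 bp over genes with an IDR summit and 210 bp over those with a pooled rank up to 1000 (an alternative chosen after seeing the data). With one replicate left out it was 46 to 83 bp, over the genes with a summit in the other replicate's list, which are partly other genes. No IDR list exists for one replicate alone, so the other replicate's top list was counted in its place, which gave 8 to 10 genes. Taking the summit nearest to the 5′ end in place of the strongest moved the median rank of the 12 genes to 285 from 166, and the strongest was also the nearest in 7 of 12. Giving each summit only to the nearest 5′ end left 9 genes, without F38E11.10, sup-39 and T08G5.11, and 6 shared summits; the stronger 295 IDR peaks also left 9 and 6. Counting neighbours once gave 11, leaving out chromosome X 12, and, chosen after seeing the data, leaving out mir-1831 gave 11 and leaving out genes with an exact copy gave 7. The word CGGAACCC was found before 26 genes also in 150 bp, and before 42 with 1 mismatch. The count in both replicates was 8 in the first 1000 entries and 6 in the first 300, against 7. With 50-base words, chosen after seeing the data, the median share of unique words inside the genes with an IDR summit, mir-1831 not counted, was 0, as with 36-base words. The causes of these shifts were not tested beyond what the settings themselves change. No paired analysis was possible because the series has 1 group. Read depth is unknown, and 2 replicates limit what can be said of single summits.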
